A study of Mus musculus with 4 samples.

Results

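The genes described here are the Slc25 mitochondrial carriers of mouse liver tumours. They were taken as every gene whose symbol is Slc25a followed by a number, leaving out Slc25a13, Slc25a15 and Slc25a20, which gave 44 of the 24063 genes in the tables. The study holds 4 poly-A RNA libraries from tumours of mice whose strain the labels give as C57BL/6 and as C57BL6/J, all labelled MYC;PMEPA1 overexpression, delivered by hydrodynamic injection into the tail vein, a fast, large-volume injection by which DNA reaches mostly hepatocytes. MYC switches on growth genes, and PMEPA1 sits in membranes and dampens the TGF-beta pathway that induces it. The tumours carry the numbers 1, 5, 9 and 10, and values given in a row of 4 follow that order. There is 1 group and no control, so no condition could be compared. The measurement is the spread between tumours, which may be partly technical, since no label ties the tumours to separate animals. The labels give no age, and they list a passage range, a term of cell culture, for what is described as a tumour.

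Carriers of this family sit mostly in the inner mitochondrial membrane and move nucleotides, phosphate, citrate, amino acids, vitamins and iron between the mitochondrial matrix and the cytosol. Each is built from a repeated domain, and most work by exchanging 1 substrate for another. In hepatocytes they link the urea cycle, gluconeogenesis, fatty acid synthesis and haem synthesis across the membrane.

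Gene totals were 41547938 to 51939623 counts per library. Counts were scaled by the trimmed mean of M-values (TMM) and are given as counts per 1000000 (CPM). A total of 3 counts corresponds to 0.0524, 0.0700, 0.0558 and 0.0892 CPM, floors that cover counting error only. Hepatocyte markers were present in every tumour, with all 11 above 0, and their summed level was 12467, 13443, 18373 and 38850 CPM. Of the mouse genes matching the delivered pair, Myc had 4.86, 6.84, 8.58 and 7.40 CPM and Pmepa1 2.43, 7.28, 4.19 and 0.922 CPM. Whether the delivered genes were of mouse or human sequence is not stated in the labels.

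Of the 44 carriers, 38 had a mean of at least 1 CPM and are called expressed. The family summed to 3628, 4176, 4517 and 6097 CPM under TMM, where all expressed genes summed to 906270, 969050, 909080 and 1246300 CPM. Under scaling by total counts the family summed to 3997, 4305, 4960 and 4888 CPM, so that tumour 9 led. Per kilobase of transcript, 4 carriers, Slc25a4, Slc25a3, Slc25a5 and Slc25a39, made up 77.2, 77.1, 75.3 and 67.4% of the family. The ADP/ATP carrier Slc25a4 had the highest mean level, 744 CPM per kilobase, and lay at percentile 99.0 of all expressed genes. The lowest expressed carrier, Slc25a34, had 0.410 CPM per kilobase and lay at percentile 2.52. Slc25a34 passed the filter only through tumour 9, so nothing is read from its place at the low end. The next lowest carrier, Slc25a53, lay at percentile 6.96. The expressed carriers other than Slc25a34 thus lay between percentiles 6.96 and 99.0.

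**Figure D1:**
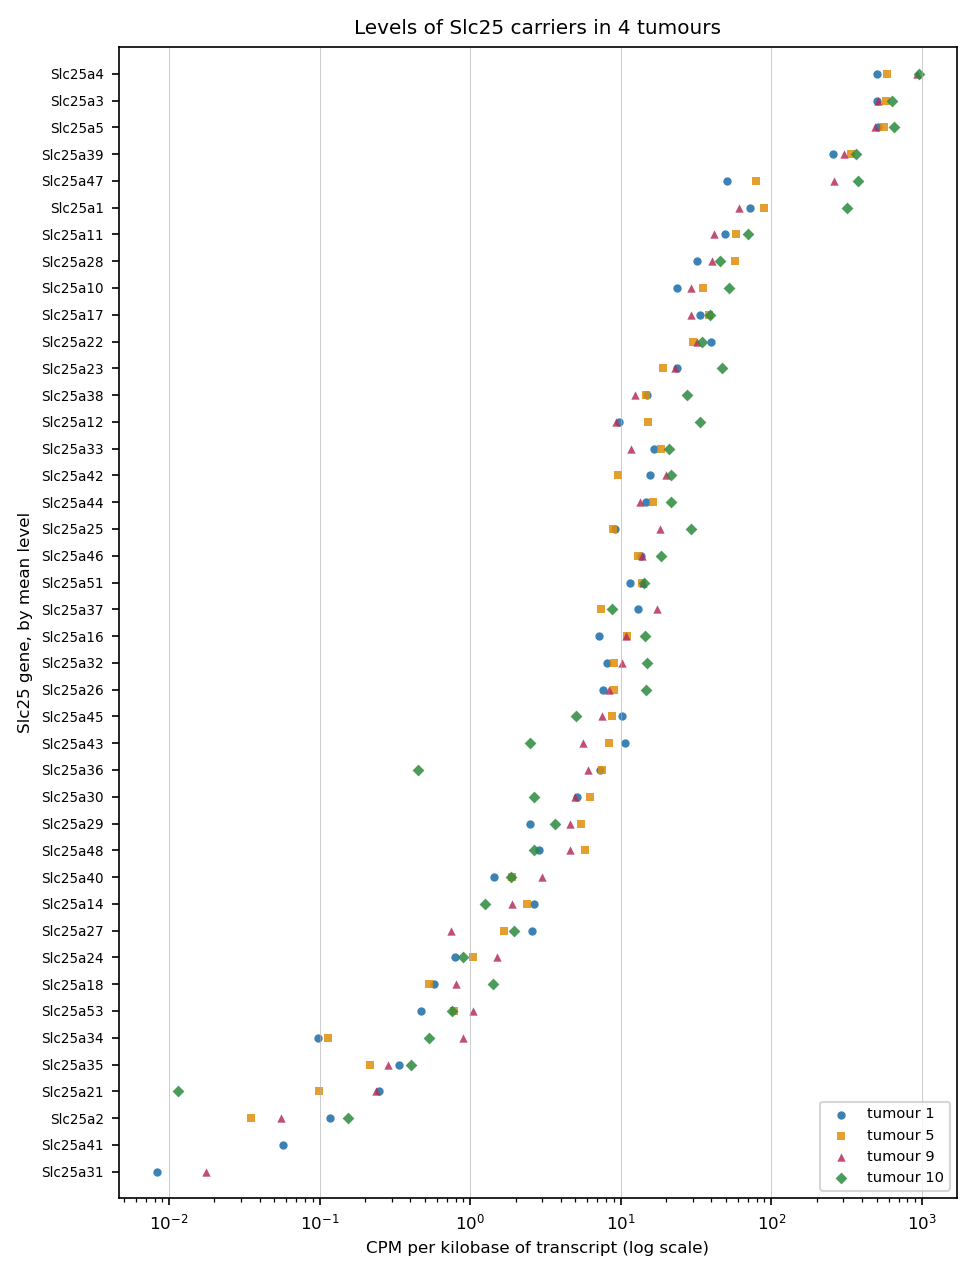
Level of Slc25 genes in CPM per kilobase of transcript on a log scale, 1 point per tumour, ordered by mean over the 4 tumours. Points at 0 are not drawn, and Slc25a54, with no count in any tumour, and 1 other carrier are left out. Slc25a4 leads the family and Slc25a36 in tumour 10 lies far to the left of its other 3 points.

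All 38 expressed carriers varied between tumours beyond counting noise by a Poisson heterogeneity test adjusted over all genes by Benjamini-Hochberg, where 98.7% of all 13129 expressed genes did so. With 5% of technical variation added to the model the count was again 38, against 94.1% of all genes. The share of carriers is thus close to that of all genes. The median SD of log2 CPM was 0.46 over the carriers and 0.45 over all expressed genes. An SD of at least 1 was reached by 4 carriers, Slc25a36, Slc25a34, Slc25a47 and Slc25a1, which is 10.5% of the 38, beside 16.6% of all genes. Nothing is read from that share, since Slc25a34 passed the filter only through tumour 9, where it was high. The lowest SDs under TMM were those of Slc25a51, an NAD carrier, with 0.14, and the phosphate carrier Slc25a3, with 0.16. Under scaling by total counts the lowest was Slc25a5, with 0.06, while Slc25a51 had 0.19.

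Tumour 10 held the highest level of 23 of the 38 carriers (60.5%), beside 35.8% of all expressed genes. Tumours 1, 5 and 9 were highest for 5 carriers each, beside 21.4, 21.2 and 21.6% of all genes. The counts of tumours 10 and 9 include Slc25a18 and Slc25a34, which passed the filter only through tumour 10 and tumour 9, so the filter itself fixed their place. The median carrier lay at -0.19, 0.03, -0.05 and 0.31 log2 units from its own 4-tumour mean, where the median over all genes was -0.01, 0.00, -0.04 and 0.02. This picture depends on the scaling. Scaling by total counts alone shifts the median gene by 0.14, 0.04, 0.13 and -0.32 log2 units against TMM. Tumour 10 then led for 11 of 38 carriers (28.9%), beside 20.2% of all genes, and the median carrier lay at -0.01 there. Hepatocyte markers were also highest in tumour 10, for 10 of 11 genes under TMM and 9 of 11 under total counts. Stellate and fibroblast markers, 8 genes with none at 0, summed to 397, 279, 495 and 107 CPM, and 6 cholangiocyte markers, none at 0, to 51.2, 79.4, 15.5 and 13.9 CPM. The part of these cell types in the carrier levels was not tested. In bulk libraries, fewer cells of a type and less RNA per cell cannot be told apart.

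Each tumour was set against the other 3 with edgeR's quasi-likelihood test, with Benjamini-Hochberg adjustment across every gene in all 4 tumours at once, called the edgeR test from here on. No carrier passed in any tumour, and neither did any other gene (0%). At an unadjusted p of 0.05 the edgeR test gave 0 carriers in tumours 1, 5 and 9. The same threshold took 0.427, 0.617 and 3.76% of all genes as higher and 0.289, 0.305 and 1.9% as lower in those tumours. In tumour 10 it gave 8 carriers higher, beside 13.9% of all genes, and 2 lower, beside 8.23%. Adjusting the edgeR p-values for tumour 10 alone gave 2 carriers, Slc25a1 and Slc25a36, beside 1.75% of all genes. The DESeq2 Wald test, adjusted across every gene in all 4 tumours at once, called 4 carriers in tumour 10, beside 10.3% of all genes. These were Slc25a1, Slc25a12, Slc25a23 and Slc25a36. DESeq2 called 0 carriers in tumours 1, 5 and 9, beside 0.221, 0.343 and 2.42% of all genes, and limma-voom called 0 in each tumour (0%). Each such test assumes that a single tumour has the same spread as the remaining 3.

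**Figure D2:**
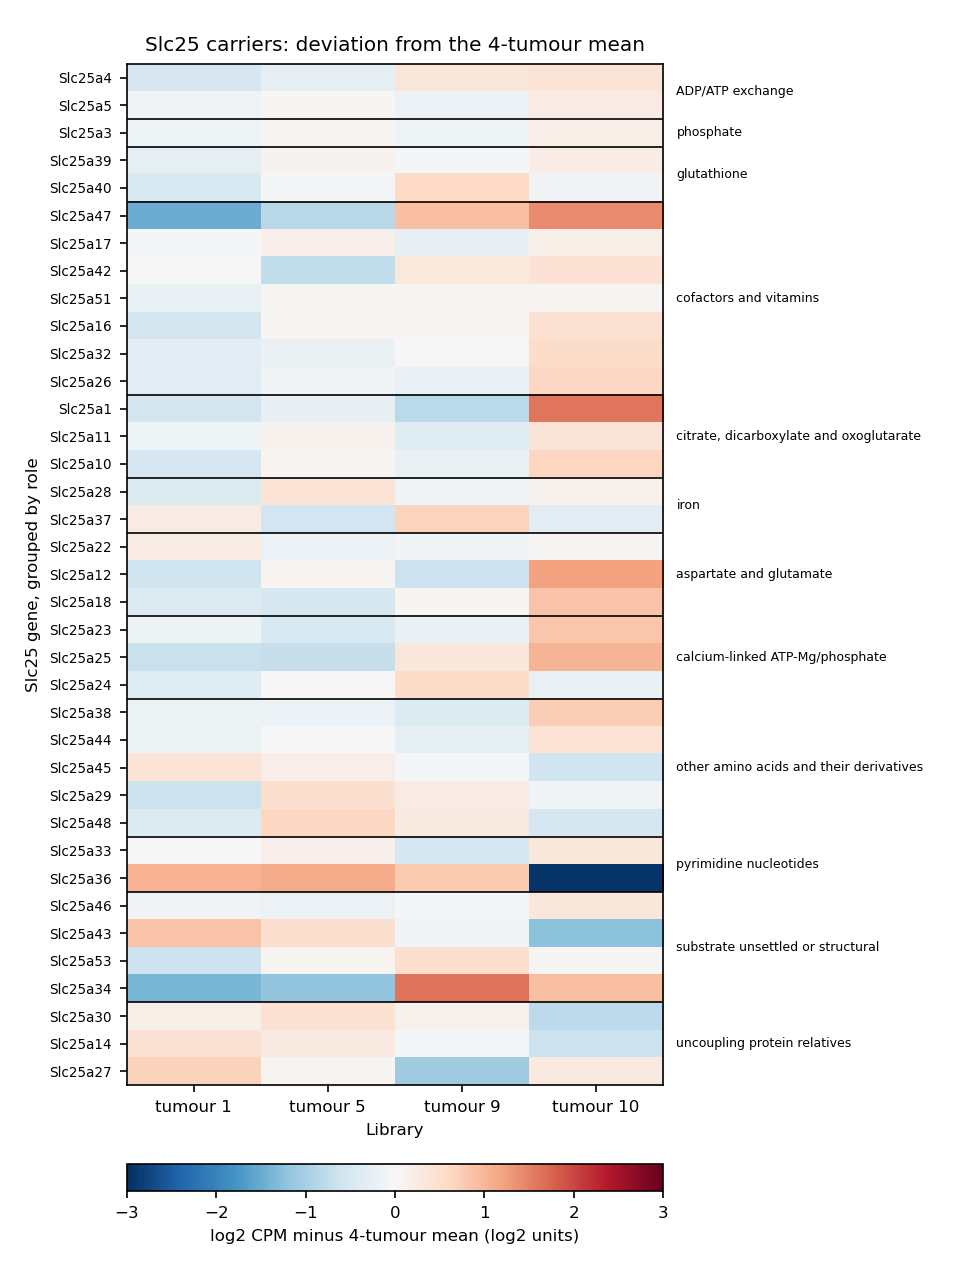
Deviation of log2 CPM from the 4-tumour mean for 37 of the 38 expressed carriers, by role, 1 column per tumour, with red above and blue below the mean. Slc25a36 in tumour 10 is the deepest blue, and Slc25a1 in tumour 10 and Slc25a34 in tumour 9 are the deepest red.

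The ADP/ATP carriers bring ADP into the matrix in exchange for the ATP made there. Coordinates beside a gene are its RefSeq span on GRCm38. Slc25a4 (NM_007450, chromosome 8, 46207168 to 46211062), the isoform typical of heart and muscle, had 560, 652, 1025 and 1056 CPM, a mean of 823 ± 254 (SD, n = 4). Tumours 9 and 10 were higher than tumours 1 and 5, also under scaling by total counts, where tumour 9 led. Slc25a5 (NM_007451, chromosome X, 36795597 to 36798808), the isoform typical of dividing cells, had 634, 694, 603 and 812 CPM, a mean of 686 ± 92.2 (SD, n = 4). Its range was narrow. Tumour 10 was its highest under TMM but its lowest under scaling by total counts. Per kilobase, Slc25a5 stood at 1.01, 0.950, 0.526 and 0.687 times Slc25a4, a ratio within each library that scaling does not touch. The pair was thus level in tumours 1 and 5, and Slc25a4 was ahead in tumours 9 and 10. Skeletal muscle markers summed to 15.3, 3.64, 3.41 and 4.94 CPM, with 2 of 6 expressed and Myh1 and Myh4 at 0 in all libraries. Of the 2 expressed, Ckm had 12.0, 0.280, 0.261 and 0.297 CPM and Mylpf 3.1, 3.2, 2.9 and 4.2 CPM. The sum was thus highest in tumour 1 through Ckm, while Mylpf was highest in tumour 10. The part of muscle in the Slc25a4 level was not tested. The testis isoform Slc25a31 had 1, 0, 2 and 0 counts, below the floor in each library.

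The phosphate needed for ATP synthesis enters through Slc25a3, the second carrier by mean level per kilobase. It had 764, 879, 771 and 955 CPM, a mean of 842 ± 92.0 (SD, n = 4). The highest tumour was 1.25 times the lowest, and tumour 10 was highest under TMM but lowest under scaling by total counts.

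Carriers of citrate and dicarboxylates feed cytosolic acetyl-CoA and shuttle reducing power. Slc25a1 (NM_153150, chromosome 16, 17925211 to 17928219), the citrate carrier that exports citrate for fatty acid and cholesterol synthesis, had 121, 149, 102 and 537 CPM. Tumour 10 stood above the other 3, which differed little from each other. The edgeR test gave a log2 fold change of 2.12 ± 0.28 (SE) for tumour 10 against the other 3, with an adjusted p of 0.156. Without tumour 9, Slc25a1 passed the edgeR test in tumour 10, at 1.96 ± 0.23 (SE) and an adjusted p of 0.0436, in a fit that called 3.19% of all genes. With total counts alone, its levels were 133, 153, 112 and 430 CPM, so tumour 10 led there too. Slc25a10, the dicarboxylate carrier, had 94.4, 140, 117 and 210 CPM and was also highest in tumour 10. Slc25a11, the oxoglutarate carrier of the malate-aspartate shuttle, had 91.9, 108, 77.5 and 131 CPM, and tumour 5 overtook tumour 10 under scaling by total counts. Slc25a21, which carries oxodicarboxylates, stayed under the filter, with 37, 11, 33 and 1 counts.

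The promoter windows of 4 carriers are shown because 3 of them hold CACGTG, the E-box letters that MYC and MAX bind, and because Slc25a1, Slc25a36 and Slc25a47 are among the carriers that varied most. Each runs from 250 bases before to 50 after a RefSeq transcript start (GRCm38.p6) on the gene's strand, with CACGTG in capitals.
Slc25a1 (chr16:17928170-17928469, minus strand): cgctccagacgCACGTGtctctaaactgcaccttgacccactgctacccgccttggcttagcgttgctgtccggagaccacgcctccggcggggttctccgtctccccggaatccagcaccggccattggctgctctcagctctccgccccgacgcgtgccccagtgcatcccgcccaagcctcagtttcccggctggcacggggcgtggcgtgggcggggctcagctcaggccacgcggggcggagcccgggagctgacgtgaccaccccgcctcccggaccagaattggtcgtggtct
Slc25a36 (chr9:97110992-97111291, minus strand): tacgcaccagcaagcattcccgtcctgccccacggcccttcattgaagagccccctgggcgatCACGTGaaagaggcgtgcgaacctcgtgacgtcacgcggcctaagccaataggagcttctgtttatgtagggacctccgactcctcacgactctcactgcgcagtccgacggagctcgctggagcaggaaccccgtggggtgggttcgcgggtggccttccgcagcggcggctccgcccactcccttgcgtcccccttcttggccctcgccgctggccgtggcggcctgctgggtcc
Slc25a33 (chr4:149774218-149774517, minus strand): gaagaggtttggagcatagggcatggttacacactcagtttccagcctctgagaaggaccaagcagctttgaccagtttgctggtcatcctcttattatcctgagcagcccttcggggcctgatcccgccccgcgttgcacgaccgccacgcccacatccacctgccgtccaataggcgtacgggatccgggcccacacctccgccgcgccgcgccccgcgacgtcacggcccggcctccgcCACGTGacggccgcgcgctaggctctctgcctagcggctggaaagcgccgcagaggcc
Slc25a47 (chr12:108850879-108851178, plus strand): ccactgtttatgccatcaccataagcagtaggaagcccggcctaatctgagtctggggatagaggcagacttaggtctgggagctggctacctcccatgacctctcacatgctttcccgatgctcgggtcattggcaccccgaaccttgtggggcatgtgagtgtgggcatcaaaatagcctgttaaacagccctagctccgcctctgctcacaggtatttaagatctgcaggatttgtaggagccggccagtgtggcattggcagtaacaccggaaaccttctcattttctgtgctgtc
The word starts at position -239 in Slc25a1, -187 in Slc25a36 and -8 in Slc25a33, counted from the RefSeq start that sets the window. It is absent from the Slc25a47 window. The counted Slc25a47 transcript starts at 108851129 in GENCODE M21, inside the RefSeq span of the gene and 250 bases into this window. The GENCODE M21 transcripts matched by RefSeq name to the counted rows of Slc25a1, Slc25a33 and Slc25a36 start 250, 240 and 134 bases into their windows. For Slc25a36 the GENCODE start is at 97111157, while the RefSeq span puts it at 97111041. The word in Slc25a36 thus lies nearer the GENCODE start than -187, and at -187 from the RefSeq start. A window was found in RefSeq for 33 of the 44 carriers. CACGTG, which reads the same on both strands, was in at least 1 window of 5 of the 33 (15.2%), Slc25a1, Slc25a14, Slc25a31, Slc25a33 and Slc25a36, beside 8.09% of all 27025 genes with a window. The letters CCAAT, on either strand, were in 18 of 33 (54.5%), beside 41.1% of all genes. The GC box letters GGGCGG, on either strand, were in 28 of 33 (84.8%), beside 38.2% of all genes, a set that also holds genes not expressed here. Of the 5 carriers with CACGTG, Slc25a1 and Slc25a33 were highest in tumour 10 under TMM, as were 35.8% of all expressed genes. Slc25a14 and Slc25a36 were lowest there, and Slc25a31 was not expressed. Under scaling by total counts Slc25a33 was highest in tumour 5. The share of all genes lowest in tumour 10 is not given here. A link between CACGTG and these levels was not tested.

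Aspartate and glutamate carriers serve the malate-aspartate shuttle and nitrogen metabolism. Slc25a12, the calcium-regulated aspartate/glutamate carrier typical of brain and muscle, had 28.3, 44.5, 27.2 and 98.2 CPM. Tumour 10 was highest, at 3.61 times the lowest. By the edgeR test the log2 fold change there was 1.56 ± 0.35 (SE), with an adjusted p of 0.321, and the adjusted p was 0.0199 with DESeq2. Slc25a22, a glutamate carrier, had 101, 77.3, 81.7 and 88.3 CPM and its highest tumour was 1.31 times its lowest. Slc25a18, the other glutamate carrier, had 0.786, 0.724, 1.10 and 1.93 CPM and passed the filter only through tumour 10.

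Calcium-linked carriers exchange ATP-Mg for phosphate and so set the adenine nucleotide pool of the matrix. Slc25a23 had 79.0, 64.1, 76.9 and 157 CPM, with tumour 10 above the rest. Its log2 fold change there was 1.10 ± 0.23 (SE) by the edgeR test, with an adjusted p of 0.302, and the adjusted p was 0.0162 with DESeq2. Slc25a25 had 30.6, 29.9, 60.7 and 98.2 CPM, low in tumours 1 and 5 and higher in tumours 9 and 10. Slc25a24, of the same kind, was lower and highest in tumour 9, at 2.67, 3.50, 5.08 and 3.03 CPM. The calcium-independent Slc25a41 had 4 counts in tumour 1 and 0 elsewhere, and Slc25a54 had no count in any library.

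**Figure D3:**
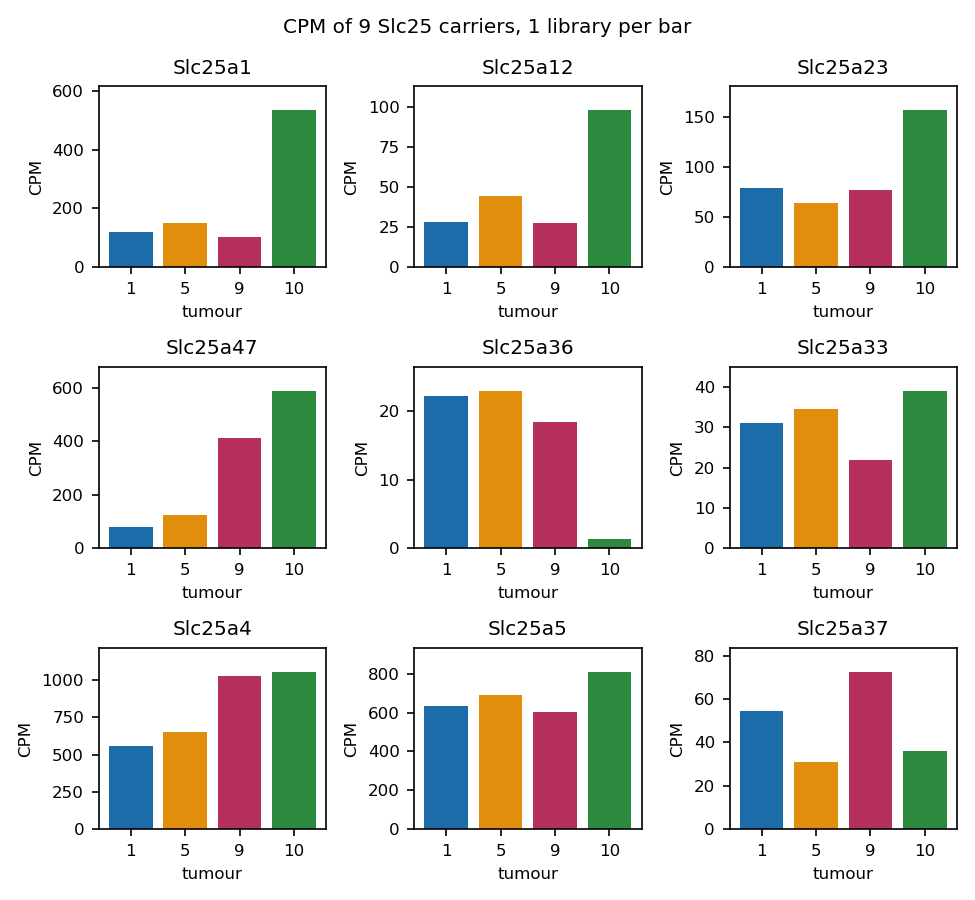
CPM of 9 carriers, 1 bar per tumour, with axes that start at 0 and differ between panels. Slc25a1, Slc25a12 and Slc25a23 are highest in tumour 10, Slc25a36 stands at 1.37 CPM there, Slc25a47 and Slc25a4 are higher in tumours 9 and 10, and Slc25a37 is highest in tumour 9.

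All 8 carriers of the cofactor and vitamin list were highest in tumour 10 under TMM, beside 35.8% of all genes. Under scaling by total counts 3 of the 8 were, beside 20.2% of all genes. Slc25a16, Slc25a42 and Slc25a51 were among those highest elsewhere, in tumour 9, and Slc25a17 in tumour 5. Slc25a47 (NM_001012310, chromosome 12, 108849833 to 108856815), a carrier found mainly in liver, varied most among them, with 79.7, 125, 413 and 590 CPM. Tumours 1 and 5 were low and tumours 9 and 10 high, with a gap from 125 to 413 CPM. This split was read from the values themselves, and no label groups the tumours this way. The share of all genes with the same split was not counted. The split is not one the edgeR test of a lone tumour addresses, and the adjusted p for Slc25a47 was 0.963 in tumour 10 and 0.988 in tumour 9. The summed hepatocyte markers put the tumours in the same order as Slc25a47. The median deviation of these markers did not, at -0.42, -0.61, -0.18 and 1.11 log2 units. It was lowest in tumour 5, though tumours 1 and 5 still lay below tumours 9 and 10. The part of hepatocytes in the level of Slc25a47 was not tested. Slc25a42, a coenzyme A carrier, had 49.7, 30.2, 63.0 and 68.6 CPM and was lowest in tumour 5. Slc25a16 had 22.6, 34.5, 33.8 and 45.4 CPM and was lowest in tumour 1. Slc25a32, which brings folate into mitochondria, had 23.7, 26.3, 30.0 and 44.2 CPM, and Slc25a26, which brings in S-adenosylmethionine, 14.7, 17.3, 15.9 and 28.0 CPM. The peroxisomal Slc25a17 (55.5, 64.4, 48.7 and 65.0 CPM) and Slc25a51 (51.3, 61.3, 62.7 and 63.5 CPM) varied less, with SDs of log2 CPM of 0.20 and 0.14.

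The carriers of pyrimidine nucleotides supply mitochondria with building blocks for DNA and RNA. Slc25a36 (NM_138756, chromosome 9, 97075281 to 97111041) had 22.2, 23.0, 18.4 and 1.37 CPM, from 1271, 987, 988 and 46 counts. Tumours 1, 5 and 9 were alike, and tumour 10 was 16.8 times lower than tumour 5. The edgeR test gave a log2 fold change of -3.95 ± 0.47 (SE) in tumour 10, with an adjusted p of 0.143. Its adjusted p was 6.35e-14 with DESeq2 and 0.337 with limma-voom. Without tumour 9, Slc25a36 passed the edgeR test, at -4.08 ± 0.42 (SE) and an adjusted p of 0.0354, among 3.19% of all genes. With total counts alone it had 24.5, 23.8, 20.2 and 1.10 CPM. Its relative Slc25a33 had 31.0, 34.6, 21.9 and 39.1 CPM and was highest in tumour 10, or in tumour 5 under scaling by total counts. The edgeR test gave Slc25a33 a log2 fold change of 0.42 ± 0.34 (SE) there, with an adjusted p of 0.984. The difference between these 2 carriers was not tested.

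Iron for haem and iron-sulphur clusters enters through the mitoferrins. Slc25a37, mitoferrin 1, the form typical of red cell precursors, had 54.4, 30.7, 72.6 and 36.2 CPM and was highest in tumour 9. By the edgeR test it stood 0.84 ± 0.43 (SE) log2 units higher there, with an adjusted p of 0.893. Erythroid markers, of which 9 of 10 have a row and none was at 0, summed to 113, 151, 1120 and 126 CPM, and all 9 were highest in tumour 9. The 9 are not separate measurements, since Hba-a1 and Hba-a2 had identical counts in each library. Alas2, given below, is also among them. Neutrophil markers summed to 12.3, 13.8, 558 and 26.2 CPM, also highest in tumour 9, for 10 of 10 genes. Their part in the Slc25a37 level was not tested. Tumour 1, with the lowest erythroid sum, was second for Slc25a37. Slc25a28, mitoferrin 2, the widely expressed form, had 49.3, 87.4, 61.6 and 70.1 CPM and was highest in tumour 5. Slc25a38, which brings in glycine for the first step of haem synthesis, had 23.6, 23.3, 19.8 and 43.6 CPM, highest in tumour 10 and lowest in tumour 9. Alas1, the enzyme of that step in liver, had 60.1, 69.1, 49.3 and 635 CPM, in the same order of tumours as Slc25a38 but for tumours 1 and 5. The red cell form Alas2 had 4.68, 5.79, 37.7 and 5.17 CPM, highest in tumour 9. Of 8 haem and iron-sulphur genes, 5 were highest in tumour 10 under TMM, beside 35.8% of all genes, and 0 passed the edgeR test. Under scaling by total counts 3 were highest there, beside 20.2% of all genes.

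Slc25a39, which brings glutathione into mitochondria, was the fourth carrier by mean level per kilobase. It had 431, 559, 508 and 613 CPM, a mean of 528 ± 77.5 (SD, n = 4), and its highest tumour was 1.42 times its lowest. Under scaling by total counts tumour 5 was highest. Its paralogue Slc25a40 was far lower per kilobase, at a mean of 2.05 CPM per kilobase against 317, and had 4.07, 5.39, 8.56 and 5.26 CPM. Tumour 9 was highest for it.

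Carriers of other amino acids and their derivatives did not share a pattern. Slc25a44, which carries branched-chain amino acids, had 52.6, 58.6, 48.1 and 76.7 CPM. Slc25a29, a carrier of basic amino acids, had 4.91, 10.7, 9.05 and 7.20 CPM, and the choline-linked Slc25a48 had 4.26, 8.66, 6.85 and 3.98 CPM. Both were highest in tumour 5, but Slc25a29 was lowest in tumour 1 and Slc25a48 in tumour 10. Slc25a45 had 18.7, 16.1, 13.8 and 9.28 CPM and was lowest in tumour 10. Slc25a2, an ornithine carrier, stayed under the filter, with 9, 2, 4 and 7 counts.

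Relatives of the uncoupling proteins, which let protons back into the matrix, were expressed at low levels. Slc25a30 had 8.77, 10.7, 8.45 and 4.49 CPM and Slc25a14 4.44, 3.97, 3.18 and 2.11 CPM, both lowest in tumour 10. Slc25a27 had 6.94, 4.51, 2.01 and 5.26 CPM and was lowest in tumour 9 instead. None of the 3 passed the edgeR test. Of the uncoupling proteins proper, Ucp2 had 41.8, 34.8, 171 and 81.2 CPM, highest in tumour 9, while Ucp1 and Ucp3 had no more than 0.0349 CPM, under the floor, in tumour 1 and were at 0 elsewhere. Macrophage markers, of which 9 of 10 have a row, summed to 268, 205, 929 and 383 CPM, highest in tumour 9 like Ucp2. Of the 8 expressed, 6 were highest in tumour 9 and 2, Clec4f and Marco, in tumour 1. The part of macrophages in the Ucp2 level was not tested.

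The remaining carriers have unsettled substrates or a structural role. Slc25a46, an outer membrane protein of mitochondrial dynamics, had a narrow range, at 59.3, 56.8, 60.9 and 80.5 CPM. Slc25a43 had 13.4, 10.4, 6.98 and 3.12 CPM, highest in tumour 1 and lowest in tumour 10, and its most abundant row is a non-coding transcript. For Slc25a43 the edgeR test put tumour 10 at a log2 fold change of -1.72 ± 0.63 (SE), with an adjusted p of 0.627. Slc25a34 had 0.262, 0.304, 2.40 and 1.43 CPM, from 15, 13, 129 and 48 counts, and passed the filter only through tumour 9. Slc25a53 was highest in tumour 9, at 3.33 CPM. Slc25a35 stayed under the filter, at 0.397 to 0.743 CPM.

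Genes that work with the carriers gave a frame for these values. For comparison, tumour 10 was highest for 35.8% of all expressed genes under TMM and 20.2% under scaling by total counts. For tumour 5 these shares were 21.2 and 20.7%. The import machinery that inserts carriers into the inner membrane had 8 of 9 genes with a row, all expressed, with 6 highest in tumour 10 (1 under scaling by total counts) and medians of -0.09, 0.10, -0.28 and 0.28 log2 units. The receptor Tomm70a had 283, 318, 256 and 401 CPM, and the chaperone Timm13 117, 197, 158 and 339 CPM. Enzymes of the malate-aspartate and citrate shuttles were highest in tumour 5 for 5 of 8 and in tumour 10 for 3 (6 and 2 under scaling by total counts), with medians of -0.18, 0.37, -0.50 and 0.30. Mdh1, the cytosolic malate dehydrogenase, had 375, 491, 361 and 983 CPM, and Me1, cytosolic malic enzyme, 14.8, 25.2, 1.82 and 139 CPM, both highest in tumour 10 like Slc25a1. Acly, which splits exported citrate, had 346, 415, 163 and 328 CPM and was not highest there. Genes taken as a gauge of mitochondrial content had medians of -0.07, 0.06, -0.27 and 0.16, and 4 of 8 were highest in tumour 10, or 1 under scaling by total counts. Other transporters of the mitochondrial membranes had medians of -0.10, 0.05, -0.14 and 0.08 over 13 expressed genes, with Vdac1, the pore of the outer membrane, at 526, 612, 510 and 550 CPM. The pyruvate carrier subunit Mpc2 had 96.6, 93.7, 139 and 240 CPM, low in tumours 1 and 5 and higher in tumours 9 and 10. None of these genes passed the edgeR test.

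**Figure D4:**
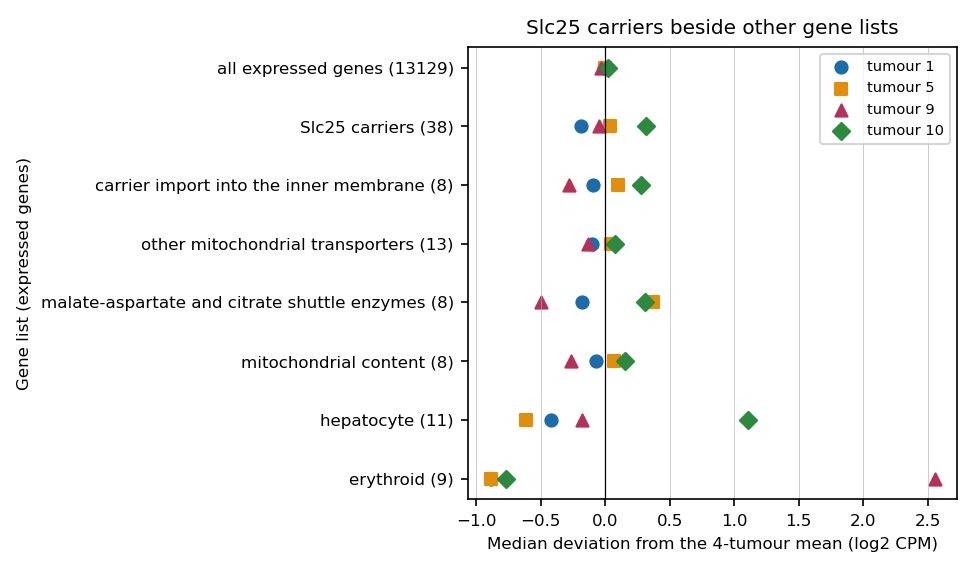
Median deviation from the 4-tumour mean of log2 CPM for the carriers and other gene lists, 1 point per tumour, with the number of expressed genes in brackets. The carriers reach 0.31 in tumour 10, where the hepatocyte markers reach 1.11, and erythroid markers reach 2.55 in tumour 9.

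Across the 38 expressed carriers, log2 CPM correlated most between tumours 1 and 5 (Pearson's r of 0.985) and least between tumours 1 and 10 (0.908), where all expressed genes gave 0.955 and 0.847. These are correlations across genes that share each library's scaling, and they describe these libraries only.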

How the data were processed

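RNA was selected for poly-A and made into TruSeq libraries, per the labels' protocols. The submitters' processing notes name FastQC 0.11.8 and the build GRCm38. Which aligner and counter were used, and whether strand was counted, is not given in the sources used here. Exons of 12 members overlap a gene on the opposite strand in GENCODE M21, and if strand was not counted these reads cannot be told apart. The deposited counts are whole reads per RefSeq transcript row, 33984 rows for 24063 genes, and each gene is its row with the highest mean count. Totals over all rows were 1.43 to 1.49 times these gene totals. The authors' deposited FPKM gave transcript lengths, and the deposited TPM column sums to 1000000 and was not used further.

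Counts were analysed in R 4.3.3 with edgeR 4.0.16 (TMM), DESeq2 1.42.0 and limma 3.58.1. Log2 CPM adds a prior count of 2, and the SE of an edgeR fold change is its size divided by the root of F. Genes with a mean of at least 1 CPM were tested, 13129 in all, at a threshold of 0.05. In data simulated with the dispersion of the real data, the edgeR test of tumour 10 run on 13129 genes, found 27% of those given a 4-fold change and 82% of those given 16-fold, while 0% of the rest were called. Counting noise alone gave 0% calls by the Poisson test. Members, roles and lists were chosen with earlier results of these data known. By rule, per-tumour values are given for the carrier with the highest level per kilobase and the one with the largest SD of each role list and for the 10 with the largest SD. For 1 expressed member no value of its own is reported here. Genes of other lists are named only where they bear on a carrier.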

Additional observations from a re-analysis of the deposited data

Results flagged for a closer look

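In 2 of the 38 expressed carriers, 1 tumour lay far from the other 3 by Dixon's ratio of the gap to the range of log2 CPM at the 95% critical value for 4 samples. Slc25a36 in tumour 10 had a ratio of 0.919, with 1.37 CPM there and 18.4 to 23.0 CPM in the others. Slc25a51 in tumour 1 had a ratio of 0.837, with 51.3 CPM there and 61.3 to 63.5 CPM in the others, but under scaling by total counts tumour 10 was its lowest. Chance flags about 1 in 20 groups, and 7.01% of all 13129 expressed genes exceeded the same value.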

How the results depend on the processing

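No carrier passed the edgeR test in tumour 10, but 4 did with the DESeq2 Wald test (10.3% of all genes), 2 (Slc25a1 and Slc25a36) with adjustment for that tumour alone (1.75%) and the same 2 without tumour 9 (3.19%), the range without 1 tumour being 0 to 2. Under each alternative run, 0 carriers passed in tumours 1, 5 and 9. The median carrier in tumour 10 moved from 0.31 to -0.0053 log2 units under scaling by total counts, which shifts all genes there, and lay between 0.18 and 0.33 under the other alternatives. Total counts also changed the number of carriers highest in tumours 5, 9 and 10 to 10, 10 and 11. A filter of 5 CPM, which leaves 32 carriers, changed it to 3 in tumour 1 and 2 in tumour 9. Without 1 tumour the number ranged from 6 to 8 in tumour 1, 8 to 17 in tumour 5, 5 to 12 in tumour 9 and 22 to 25 in tumour 10, a change the removal itself makes. These counts by setting were chosen after seeing the data. Without tumour 10 the median SD was 0.28, and 16 carriers had an SD lower by more than its error. No paired analysis was possible because there is 1 group.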

Other observations

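In 4 places the genome holds 2 of these carriers side by side in RefSeq order, and the partners had unlike levels. Slc25a29 and Slc25a47 lie 13956 bases apart on chromosome 12, with 4.91 to 10.7 and 79.7 to 590 CPM. Slc25a43 and Slc25a5 lie 18289 bases apart on chromosome X, and tumour 10 was lowest for Slc25a43 and highest for Slc25a5 under TMM, but lowest for both under scaling by total counts. Slc25a23 lies 2056 bases from Slc25a41 on chromosome 17, and Slc25a24 6566 bases from Slc25a54 on chromosome 3, where the second of each pair had at most 4 counts in any library.

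The 6 nearest protein-coding genes with a row, 3 on each side of Slc25a36 on chromosome 9, were read after its value in tumour 10 was seen. Of these, 4 were expressed. Pxylp1 had 26.6, 11.7, 31.5 and 22.2 CPM in tumours 1, 5, 9 and 10, and Nmnat3, which makes mitochondrial NAD, had 15.2, 17.6, 16.3 and 21.6 CPM. Spsb4, the nearest gene on 1 side, had 15.3, 23.7, 3.35 and 5.83 CPM and was lowest in tumour 9. Zbtb38 had 9.31, 11.3, 8.52 and 7.20 CPM and was lowest in tumour 10, as was Slc25a36. Of the 6 nearest genes of Slc25a1 on chromosome 16, 4 were under the filter. Of the other 2, Prodh, which starts proline breakdown in mitochondria, had 19.0, 63.6, 26.2 and 400 CPM and Dgcr6 31.8, 49.2, 42.4 and 70.9 CPM. Both were highest in tumour 10, as Slc25a1 and 35.8% of all expressed genes were. Among the expressed neighbours of Slc25a47 and Slc25a34, 1 of 5 and 1 of 6 were highest in tumour 10.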
